A study of Homo sapiens with 8 samples.

Results

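The expression of 9 genes of the NRF2 pathway was followed in LX-2, an immortalised human hepatic stellate cell (HSC) line with myofibroblastic features, after inhibition of the enzyme O-GlcNAc transferase (OGT). The genes were NFE2L2, KEAP1, GCLC, GCLM, SLC7A11, TXNRD1, SRXN1, NQO1 and OSGIN1. They were chosen by name from the 16796 genes counted, with earlier results of these data known, and all 9 had enough counts to be tested. OGT attaches the sugar O-GlcNAc to proteins inside the cell, and it was inhibited with the small molecule OSMI-1. Control cells received the vehicle DMSO and OGTi cells received OSMI-1 at 50 µM, both for 24 h in DMEM with 5% fetal bovine serum. Each group had 4 libraries described as biological replicates, of which the control and OGTi libraries of the same number form a pair. The cells are a single line, and no other inhibitor or dose was compared here.

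NRF2, the product of NFE2L2, is the transcription factor that raises antioxidant genes under oxidative or electrophilic stress. KEAP1 holds NRF2 in the cytoplasm and delivers it to the CUL3 ubiquitin ligase, so that NRF2 is governed largely at the level of its protein, which was not measured. Its targets feed a pair of reducing systems. In the first, SLC7A11 imports cystine and glutamate-cysteine ligase, made of the catalytic subunit GCLC and the modifier subunit GCLM, catalyses the limiting step of glutathione synthesis. In the other, thioredoxin reductase (TXNRD1) keeps thioredoxin reduced, and sulfiredoxin (SRXN1) repairs overoxidised peroxiredoxins. NQO1 reduces quinones, and OSGIN1 is an NRF2-responsive gene named for its induction by oxidative stress. In stellate cells, oxidative stress is known to promote activation.

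NRF2 acts with small MAF proteins on antioxidant response elements. The core of this element, TGACNNNGC, was searched on both strands in RefSeq promoter windows (GRCh38.p14), which run from 250 bases before to 50 bases after a start site. The motif stood in a window of 3 of the 8 genes that had one (GCLM, TXNRD1 and KEAP1), against 19.0% of the 11479 tested genes with a window and 13.3% of all 35116 windows. The motifs with 10 bases on each side are shown because they are the only matches in these windows, and capitals mark the motif, which reads as its reverse complement where the other strand is named. Positions are counted from the start site.
GCLM, chr1:93909446-93909474, minus strand, -34 to -26, motif on the other strand: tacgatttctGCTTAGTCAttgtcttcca
TXNRD1, upstream start, chr12:104215670-104215698, plus strand, -99 to -91: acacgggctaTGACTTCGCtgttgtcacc
TXNRD1, upstream start, chr12:104215761-104215789, plus strand, -8 to 1, motif on the other strand: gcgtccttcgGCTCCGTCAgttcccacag
TXNRD1, downstream start, chr12:104286920-104286948, plus strand, -102 to -94, motif on the other strand: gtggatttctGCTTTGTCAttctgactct
KEAP1, downstream start, chr19:10502807-10502835, minus strand, -54 to -46: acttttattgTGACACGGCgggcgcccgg
KEAP1, downstream start, chr19:10502784-10502812, minus strand, -31 to -23, motif on the other strand: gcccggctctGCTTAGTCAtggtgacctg
All but the first TXNRD1 sequence overlap an exon of the same gene in GENCODE release 44. The 9 motif letters of GCLM and of the KEAP1 copy nearer to the start are identical. The windows of NFE2L2, GCLC, NQO1, OSGIN1 and SRXN1 held no match, which says only that these letters are not in those windows. A match is a description of sequence and was not tested for binding.

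The libraries held 24166756 to 28201215 counts, and 12829 to 13180 genes per library reached 10 counts. No library was a copy of another of its group (chi-square per degree of freedom from 8.38 to 34.7). The LX-2 identity was checked with fixed markers. Of 11 stellate cell and myofibroblast markers, 0 rose and 8 fell in OGTi cells, among them COL3A1 (log2 fold change of -2.50, q of 3.36e-112) and COL1A2 (-1.39, q of 2.77e-40), and their summed level was 7750 to 9045 CPM (counts scaled to a common library total) in control and 5912 to 6868 in OGTi libraries. DES and LRAT, which mark stellate cells, reached no more than 6 normalized counts in any library. Summed CPM stayed low for markers of hepatocytes (0.703 to 2.81 in control, 1.01 to 2.93 in OGTi; 2 of 6 in the files), endothelial cells (2.84 to 3.72 and 0.759 to 1.81; 5 of 6) and macrophages (2.38 to 3.88 and 1.92 to 3.80; 3 of 6). For cholangiocyte markers (3 of 5 in the files) the sums were 25.8 to 41.8 and 37.8 to 50.8, mostly SOX9, which rose by 0.35 on the log2 scale (q of 0.00715), while KRT7 fell by 1.05 (q of 0.000229). Of the endothelial markers, CDH5 and TEK were called lower, TEK only with replicates 1, 3 and 4 all kept (q of 0.0611 to 0.161 without 1 of them). The part of these marker changes in the results below was not tested.

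Of the 9 genes, 5 rose and 1 fell in OGTi cells. Calls were made with the Wald test of DESeq2, with the pair as a block, at an adjusted p-value (q, Benjamini-Hochberg over all genes) of 0.05 or lower. OSGIN1, GCLM, GCLC, SRXN1 and KEAP1 were higher, TXNRD1 was lower, and SLC7A11, NQO1 and NFE2L2 did not pass. The inhibitor moved much of the transcriptome, since 46.6% of the 14028 genes with a q were called, 22.7% higher and 24.0% lower. The groups did not overlap for 5 of the 9 genes, against 38.0% of the 14895 genes tested, and 6 of the 9 moved the same way in all 4 pairs, against 55.9%. Because the 9 genes were chosen with earlier results of these data known, these shares describe them and test nothing. The median log2 fold change of the 9 genes was 0.39, and that of all genes tested was 0.00, which the size factors set near 0. In these bulk samples, fewer cells that express a gene cannot be told apart from less RNA per cell.

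**Figure D1:**
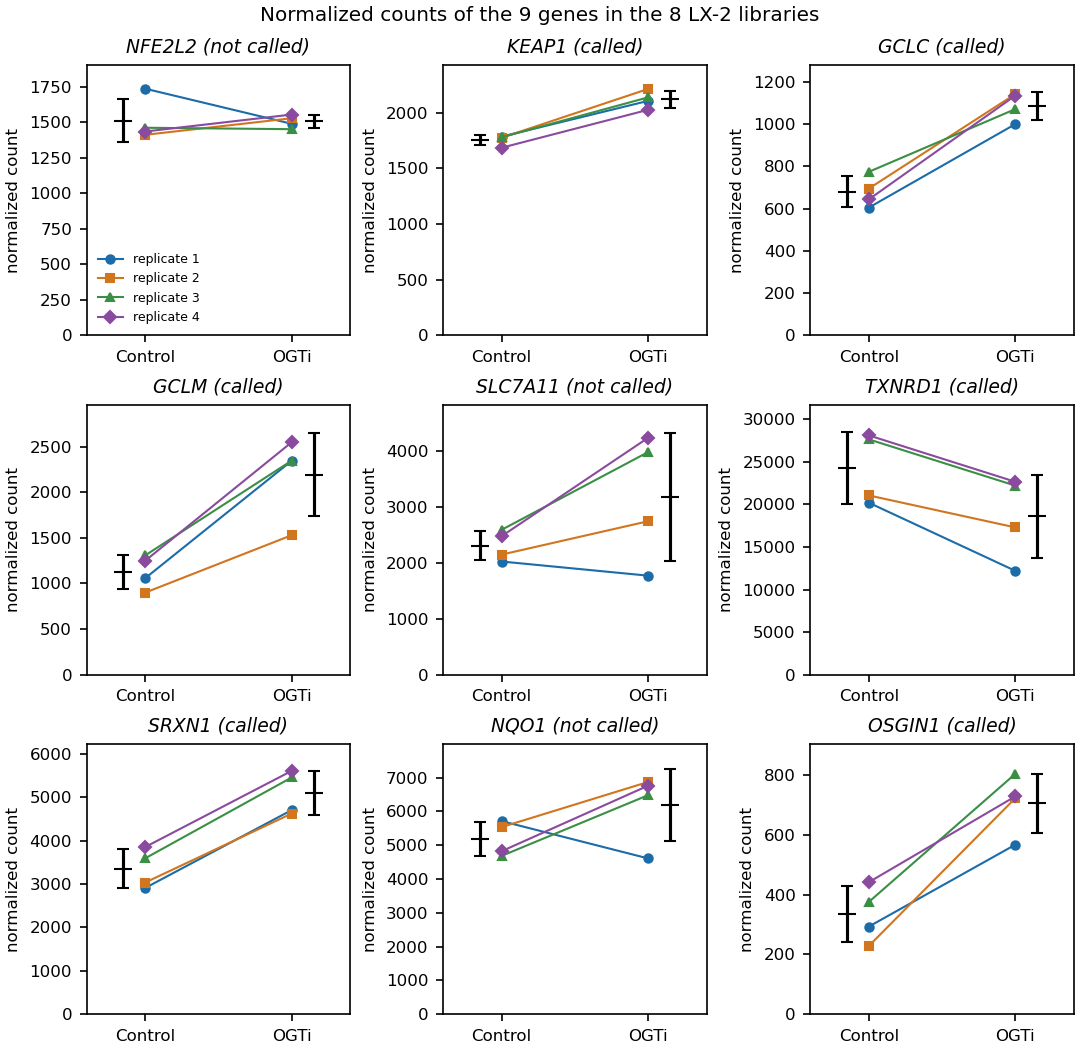
Normalized counts (counts divided by the library's size factor; each vertical axis starts at 0) of the 9 genes in the 4 control and 4 OGTi libraries, with lines joining the libraries of a pair and black bars giving the mean ± SD. KEAP1, GCLC, GCLM, SRXN1 and OSGIN1 are separated between groups, while replicate 1 turns down for SLC7A11, NQO1 and NFE2L2.

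The transcript of NRF2 itself was level, while that of its sensor was higher. NFE2L2 (ENSG00000116044.17, chr2:177218667-177392756, minus strand) had 1737, 1412, 1462 and 1435 normalized counts in control replicates 1 to 4 and 1490, 1529, 1452 and 1555 in OGTi replicates 1 to 4. These groups overlapped, and control replicate 1 was the highest of all 8 libraries. The log2 fold change of OGTi over control was -0.00 ± 0.09 (SE), with a 95% interval of -0.18 to 0.18 (q of 0.995). KEAP1 (chr19:10486125-10503558, minus strand) had 1784, 1774, 1778 and 1684 normalized counts in control and 2105, 2212, 2136 and 2024 in OGTi libraries. Every OGTi library was above every control library. The change was 1.21-fold (log2 fold change of 0.27 ± 0.08, q of 0.0014), and its pair values, from 0.24 to 0.32, were the most even of the 9 genes.

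The count ratio of KEAP1 to NFE2L2 within a library needs no scaling for depth. It was 1.03 to 1.26 in control and 1.302 to 1.471 in OGTi libraries, so that the groups did not overlap. The difference of the log2 ratio was 0.27 and positive in 4 of 4 pairs (two-sided exact permutation test, p of 0.0286, q of 0.0381 over the 4 ratios tested). Because NFE2L2 was level, this mean difference restates the rise of KEAP1 and is not a second result. With 4 libraries per group, no smaller exact p can be reached. This test does not use the pairing, and a test that flips the signs of the 4 pair differences gave a p of 0.125, the smallest that 4 pairs allow, which does not pass.

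Both subunits of glutamate-cysteine ligase rose. GCLC (chr6:53497341-53616970, minus strand) had 605, 695, 775 and 644 normalized counts in control and 1001, 1143, 1072 and 1136 in OGTi libraries. GCLM (chr1:93885199-93909456, minus strand) had 1058, 900, 1308 and 1249 in control and 2345, 1529, 2347 and 2548 in OGTi libraries. The groups of neither gene overlapped, although OGTi replicate 2 stood well below the other OGTi libraries for GCLM. The mean of GCLC went from 680 ± 73.3 to 1088 ± 66.4 (SD, n = 4 each), and its log2 fold change was 0.68 ± 0.10 (q of 2.04e-10). That of GCLM went from 1129 ± 186 to 2192 ± 452, a log2 fold change of 0.95 ± 0.09 (q of 1.07e-23). The pair values ran from 0.47 to 0.82 for GCLC and from 0.76 to 1.15 for GCLM.

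The modifier subunit rose more than the catalytic one in each pair, but the ratio did not pass its test. The count ratio of GCLM to GCLC was 1.29 to 1.94 in control and 1.34 to 2.34 in OGTi libraries. The low end of both ranges belonged to replicate 2. The log2 ratio was higher by 0.26 in OGTi libraries and higher in 4 of 4 pairs (two-sided exact permutation p of 0.314, q of 0.314). When the signs of the 4 pair differences were flipped, p was 0.125, the smallest that 4 pairs allow.

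The light chain of the cystine transporter had the widest spread of pair values of the 9 genes, from -0.19 to 0.77. SLC7A11 (chr4:138164097-138242349, minus strand) had 2025, 2149, 2594 and 2480 normalized counts in control and 1772, 2746, 3984 and 4240 in OGTi libraries. OGTi replicate 1 was below all control libraries, whereas OGTi replicates 2, 3 and 4 were above them all. The log2 fold change was 0.39 ± 0.21, with a 95% interval of -0.02 to 0.80 (DESeq2 q of 0.117), and the coefficient of variation was 11.6% in control and 36.0% in OGTi libraries. Without replicate 1 the log2 fold change was 0.58 (q of 1.57e-08), and with all libraries the quasi-likelihood test of edgeR gave 0.39 with a q of 0.00547, so the call depends on 1 pair and on the test.

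SLC3A2, the heavy chain that partners SLC7A11 and other amino acid transporters, rose in every pair. Its normalized count went from 3733 ± 207 to 13402 ± 857, a 3.59-fold change (log2 fold change of 1.84 ± 0.07, q of 3.76e-167). The count ratio of SLC7A11 to SLC3A2 was 0.550, 0.556, 0.749 and 0.632 in control and 0.134, 0.188, 0.315 and 0.323 in OGTi libraries. All OGTi libraries lay below all control libraries, and the ratio in OGTi cells was 0.365 of that in control cells (log2 difference of -1.46, lower in 4 of 4 pairs, two-sided exact permutation p of 0.0286, q of 0.0381). With the pairs kept, the sign-flip p was 0.125 and did not pass. The heavy chain transcript outgrew the light chain transcript in every pair, from -2.04 in pair 1 to -0.97 in pair 4 on the log2 scale of the ratio.

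**Figure D2:**
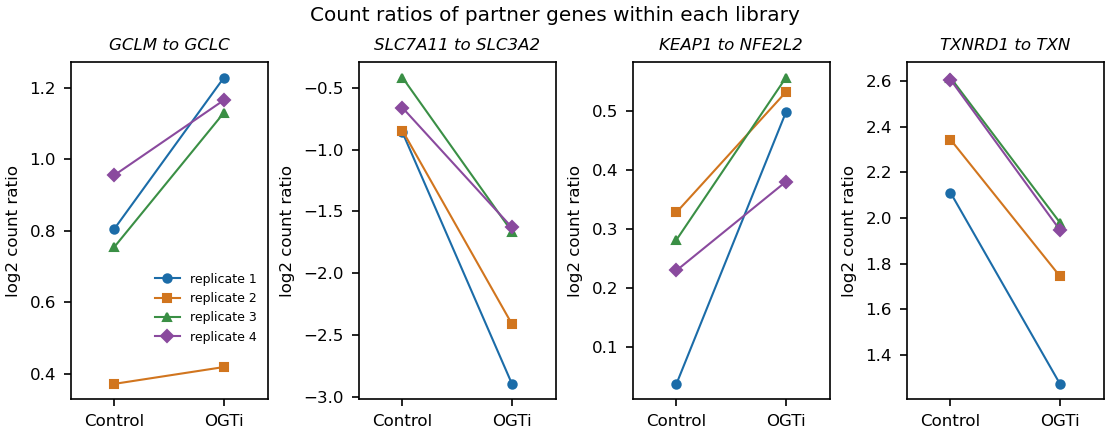
Log2 ratios of the counts of partner genes in each library, with lines joining pairs (vertical axes differ and do not start at 0). The ratio of SLC7A11 to SLC3A2 and that of TXNRD1 to TXN fell, that of KEAP1 to NFE2L2 rose, and that of GCLM to GCLC overlapped between groups.

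TXNRD1 was the only one of the 9 genes to be called lower. It (chr12:104215779-104350307, plus strand), which encodes cytosolic thioredoxin reductase, had 20205, 21062, 27648 and 28113 normalized counts in control and 12205, 17304, 22215 and 22666 in OGTi libraries. The groups overlapped, because OGTi replicates 3 and 4 were above control replicates 1 and 2, but each OGTi library was below its own control. The log2 fold change was -0.41 ± 0.08 (q of 2.69e-06), with pair values of -0.73, -0.28, -0.32 and -0.31. The call rests on the pairing: without the replicate block the log2 fold change was -0.38 with a q of 0.169. Without replicate 1 and with the block it was -0.30 (q of 2.39e-05).

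Thioredoxin itself moved the other way. TXN, the substrate of TXNRD1, stood at 4487 ± 236 normalized counts in control and at 5428 ± 390 in OGTi libraries (log2 fold change of 0.27 ± 0.07, q of 0.000563). The count ratio of TXNRD1 to TXN was 4.32, 5.08, 6.13 and 6.09 in control and 2.42, 3.35, 3.95 and 3.86 in OGTi libraries. These groups did not overlap, and the ratio in OGTi cells was 0.623 of that in control cells (log2 difference of -0.68, lower in 4 of 4 pairs, two-sided exact permutation p of 0.0286, q of 0.0381). The paired sign-flip p was again 0.125.

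SRXN1 (chr20:646615-653200, minus strand), the sulfiredoxin gene, rose in contrast to TXNRD1. Its normalized counts were 2909, 3034, 3592 and 3852 in control and 4703, 4624, 5455 and 5607 in OGTi libraries. The lowest OGTi library was above the highest control library. The log2 fold change was 0.61 ± 0.07 (q of 2.22e-17), with pair values between 0.54 and 0.69. In both groups replicates 3 and 4 were above replicates 1 and 2, a layout that GCLM, SLC7A11, TXNRD1 and OSGIN1 also had.

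NQO1 (chr16:69706996-69726668, minus strand), which encodes a quinone reductase often used as a readout of NRF2, fell just short of the threshold. Its normalized counts were 5714, 5537, 4685 and 4824 in control and 4609, 6873, 6482 and 6763 in OGTi libraries. As for SLC7A11, OGTi replicate 1 was below every control library and the other OGTi libraries were above every control library. The log2 fold change was 0.24 ± 0.11, with a 95% interval of 0.03 to 0.45 that was not adjusted for the number of genes (q of 0.0567). Without replicate 1 it was 0.42 (q of 3.50e-07).

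OSGIN1 (chr16:83931311-83966332, plus strand) had the largest change of the 9 genes. It had 293, 228, 376 and 442 normalized counts in control and 568, 723, 805 and 729 in OGTi libraries. The groups did not overlap, and the pair values were 0.95, 1.66, 1.10 and 0.72. The fold change was 2.15 (log2 fold change of 1.10 ± 0.15, q of 7.87e-13). Over the 10994 genes whose mean reached 100 normalized counts, those whose 4 pair values lay nearest to those of OSGIN1 were C14orf93, EEF1AKMT4 and WWOX, with root mean square differences of 0.0885, 0.170 and 0.203 on the log2 scale. These genes were picked by their pair values, so their rise follows from the choice and is not a separate result. The log2 fold change of WWOX, an oxidoreductase gene, was 1.23 ± 0.15 (q of 9.08e-15). That of C14orf93 was 1.09 ± 0.19 (q of 2.97e-08), whereas reads of EEF1AKMT4 (1.24 ± 0.21) may be shared with its readthrough transcript.

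Pair 1 differed from the others for part of the 9 genes. The median log2 ratio of the 9 genes was 0.24, 0.35, 0.47 and 0.54 in pairs 1 to 4, with 5, 8, 7 and 8 of the 9 genes higher in OGTi. Over all genes the median was 0.00 in each pair, which the size factors set near 0. The lowest of the 4 pair values fell in pair 1 for 5 of the 9 genes (NFE2L2, KEAP1, SLC7A11, TXNRD1 and NQO1), against 27.5% of all genes tested. In the same pair GCLM (1.15) and SRXN1 (0.69) had their highest values. OGTi replicate 1 held 27638478 counts, the most of the OGTi libraries. The labels name no batch. Without replicate 1, 8 of the 9 genes were called in place of 6, with SLC7A11 and NQO1 among them.

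**Figure D3:**
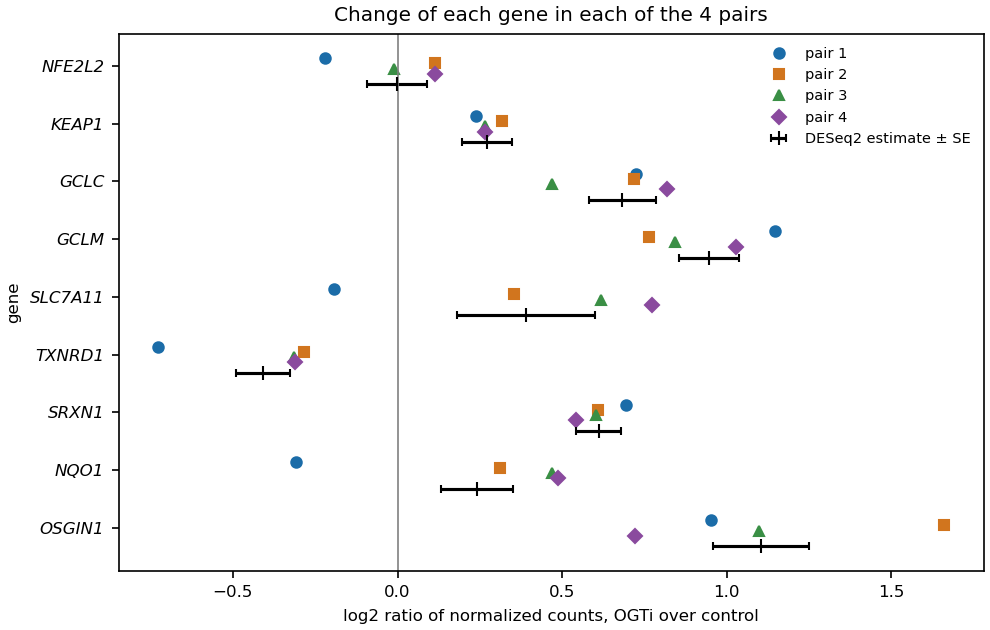
Log2 ratio of normalized counts, OGTi over control, for each of the 9 genes in each of the 4 pairs, with the DESeq2 log2 fold change ± SE in black. Pair 1 lies to the left of the other pairs for SLC7A11, NQO1, TXNRD1 and NFE2L2, and to the right of them for GCLM and SRXN1.

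The 9 genes were expressed at very different levels. CPM scales by total counts and not by size factors, so a change in level between the groups differs from the fold changes above. NFE2L2, for instance, reads 13.4 in control and 14.2 in OGTi cells, although its log2 fold change was level. Per kilobase of the longest annotated mRNA, TXNRD1 was highest in control cells at 225 ± 33.3 CPM per kilobase (SD, n = 4). NQO1 (76.1 ± 9.5), SRXN1 (48.9 ± 5.4), KEAP1 (24.5 ± 1.1) and NFE2L2 (13.4 ± 1.6) followed, and the ranges of these 5 genes did not overlap. SLC7A11 (8.85 ± 0.80), GCLM (8.53 ± 1.21), GCLC (6.63 ± 0.62) and OSGIN1 (5.53 ± 1.43) came last, and each overlapped its neighbour in this order. In OGTi cells GCLM, at 17.7 ± 3.8, stood above NFE2L2 (14.2 ± 0.53) and SLC7A11 (13.0 ± 4.7), with overlapping ranges. The other levels there were 184 ± 48.9 for TXNRD1, 96.3 ± 16.3 for NQO1, 79.4 ± 8.2 for SRXN1, 31.5 ± 0.85 for KEAP1, 12.5 ± 1.7 for OSGIN1 and 11.3 ± 0.69 for GCLC. TXNRD1 thus kept the highest mean level while it fell, and the ranges of NQO1 and SRXN1 now overlapped. The order depends on the length used. With the median mRNA length in place of the longest, KEAP1 (64.0 in control) stood above SRXN1, SLC7A11 came last in both groups, and in OGTi cells NFE2L2 (23.6) stood above GCLM (21.9).

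**Figure D4:**
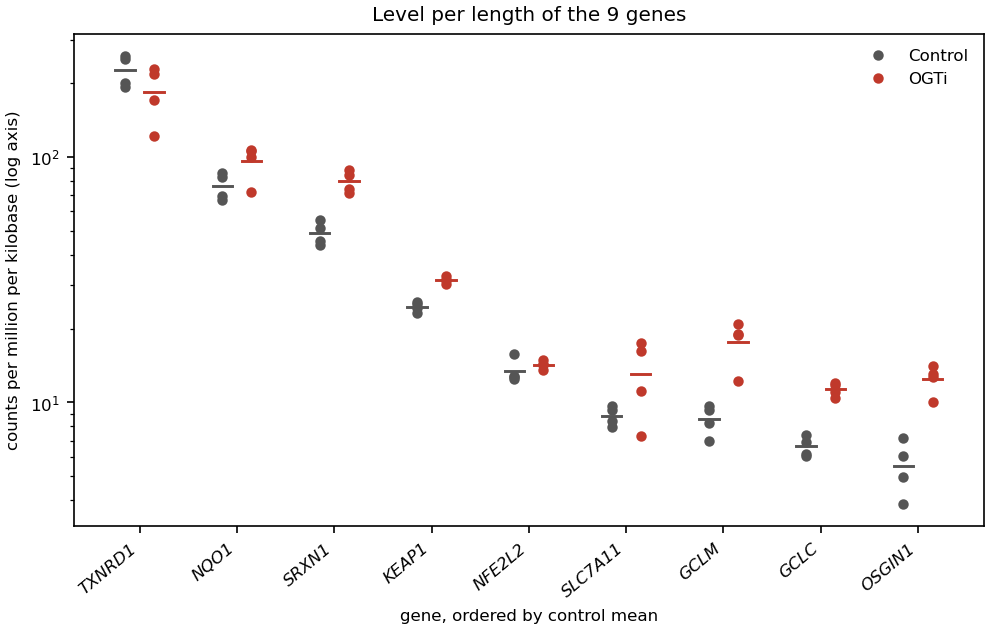
Level of the 9 genes in CPM per kilobase of the longest mRNA (log axis), with each library as a point and the group mean as a line, ordered by the control mean. TXNRD1 is highest in both groups, and GCLM moves above NFE2L2 and SLC7A11 in OGTi cells, an order that NFE2L2 and GCLM exchange with the median mRNA length.

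Counts on the related gene lists are to be read against the 22.7% of all genes called higher and the 24.0% called lower. These lists, too, were chosen with earlier results of these data known. From each, the 2 called genes with the largest Wald statistic (mean of at least 100 normalized counts) are named, so these were also picked by their values. Of 14 genes that control NRF2 or share its binding sites, 4 rose, 2 fell and 8 did not pass, with a median log2 fold change of -0.03, so that the share called (6 of 14) was close to the 46.6% of all genes. SQSTM1, which encodes p62, an autophagy receptor that competes with NRF2 for KEAP1, rose from 8368 ± 712 to 23621 ± 841 normalized counts (1.50 ± 0.07, q of 2.66e-100). Among the small MAF partners, MAFF rose from 740 to 1994 (1.43 ± 0.11, q of 1.15e-39) and MAFG by 0.32 (q of 0.000337), while MAFK was level at -0.00 ± 0.12 (q of 0.981). NFE2L1, a related factor that governs proteasome genes, rose by 0.67 (q of 4.75e-22). BACH1, a repressor at the same elements, had 1317 ± 122 and 1195 ± 93.7 normalized counts (-0.14 ± 0.09, q of 0.212). The genes that fell, named here after their values were seen, were RBX1 (-0.79, q of 1.50e-07), a subunit of the CUL3 ligase, and the coactivator CREBBP (-0.28, q of 0.0014), which did not pass without replicate 4 (-0.22, q of 0.0576).

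Of 17 further genes of glutathione synthesis, reduction and breakdown, 7 rose, 0 fell and 10 did not pass, with a median of 0.22. The share called in either direction (7 of 17) was below the 46.6% of all genes. Besides SLC3A2, the genes that rose included CHAC1, which breaks glutathione down (1.06 ± 0.35, q of 0.0072, and q of 0.0668 without replicate 4). The glutaredoxin GLRX rose from 142 ± 49.1 to 299 ± 84.0 normalized counts (1.09 ± 0.17, q of 6.79e-10). GSS, the enzyme that completes glutathione, had 1761 ± 274 and 1750 ± 214 normalized counts (-0.01 ± 0.09, q of 0.964). GSR, glutathione reductase, was higher in 4 of 4 pairs but did not pass (0.15 ± 0.08, q of 0.128). Of 16 glutathione peroxidases and transferases, 6 rose and 2 fell, with a median of 0.21, and the share called (8 of 16) was again close to that of all genes. GPX4, the peroxidase of membrane lipids, rose by 0.30 (q of 0.000829), GSTO1 by 0.90 (q of 3.07e-14) and GSTK1 by 0.71 (q of 2.25e-14). The GSTM genes have near-identical copies, so counts of single members are uncertain. The genes that fell, named after their values were seen, were GSTZ1 (-0.69, q of 0.00456) and GPX8 (-0.36, q of 5.24e-05).

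The thioredoxin group held changes in both directions. Of 19 genes of the thioredoxin system and the peroxiredoxins, 10 rose and 5 fell, with a median of 0.27. TXNIP, the inhibitor of thioredoxin, went from 3601 ± 435 to 1783 ± 129 normalized counts (-1.01 ± 0.08, q of 9.82e-38). TXNRD2, the mitochondrial counterpart of TXNRD1, went from 1484 ± 158 to 718 ± 69.0 (-1.05 ± 0.11, q of 1.25e-19), lower in all 4 pairs. The other genes that fell, named after their values were seen, were the mitochondrial peroxiredoxin PRDX3 (-0.78, q of 1.10e-17), the methionine sulfoxide reductase MSRB3 (-0.80, q of 2.89e-20) and PRDX4 of the endoplasmic reticulum (-0.27, q of 0.0167). PRDX4 did not pass without the replicate block (q of 0.0854) or without replicate 2, 3 or 4 (q of 0.0633 to 0.152). Sestrin SESN2, a stress-induced gene, rose by 1.01 ± 0.10 (q of 1.65e-20). TXNRD3, the third reductase, rose from 59.1 to 119 normalized counts (1.02 ± 0.27, q of 0.000502) and was also named after its values were seen.

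The genes that supply NADPH, on which both reductases and NQO1 depend, rose in 7 of 10 cases and fell in 0, with a median of 0.40. PGD of the pentose phosphate pathway rose by 0.79 ± 0.09 (q of 6.48e-19). Malic enzyme ME1 rose by 0.66 ± 0.11 (q of 5.94e-09), and the mitochondrial isocitrate dehydrogenase IDH2 by 0.93 ± 0.09 (q of 1.61e-21). All 4 genes of the superoxide dismutases and catalase rose, with a median of 0.62. SOD2 of the mitochondria (0.79, q of 5.09e-24) and the secreted SOD3 (0.95, q of 2.33e-11) had the largest Wald statistics of these 4. The others, named after their values were seen, were SOD1 (0.27, q of 0.00328) and CAT (0.45, q of 2.11e-05). SOD1 did not pass without the replicate block (q of 0.1001) or without replicate 2 (q of 0.0924).

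Other genes known as NRF2 targets did not move as 1 block. Of 26 tested, 12 rose, 5 fell and 9 did not pass, with a median of 0.10. HMOX1, which degrades haem, went from 584 ± 50.4 to 2419 ± 342 normalized counts (2.05 ± 0.09, q of 8.90e-106). FTL, the light chain of ferritin, went from 51215 ± 6030 to 116115 ± 11544 (1.18 ± 0.08, q of 3.03e-53), and its processed copies make single counts uncertain. The 5 genes that fell, all named after their values were seen, were CBR3 (-0.78), TRIM16L (-0.48), RIT1 (-0.46), AKR1B1 (-0.43) and ABCC4 (-0.42). Most of the 12 that rose are not named here, and some of those rose by more than CBR3 fell. TRIM16L has a near-identical copy, TRIM16, whose log2 fold change was 0.36. The calls of TRIM16L, TRIM16 and RIT1 were each lost when any of 3 replicates was left out. HMOX1 is also a target of other stress and haem-responsive factors.

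SLC7A11, SLC3A2 and CHAC1 are known to respond to ATF4, the factor of amino acid and endoplasmic reticulum stress, as well. Of 13 genes of an ATF4 list, 7 rose, 2 fell and 4 did not pass, with a median of 0.39. ATF4 itself went from 6828 ± 402 to 11358 ± 1829 normalized counts (0.72 ± 0.08, q of 2.10e-16), and ASNS, asparagine synthetase, rose by 1.03 ± 0.11 (q of 1.87e-20). The genes that fell were both amino acid transporters, SLC38A2 (-0.65, q of 2.51e-14) and SLC7A5 (-0.28, q of 0.00318), and were named after their values were seen. SLC7A5, another light chain that pairs with SLC3A2, did not pass without the replicate block (-0.26, q of 0.108) or without replicate 4 (-0.23, q of 0.0711).

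**Figure D5:**
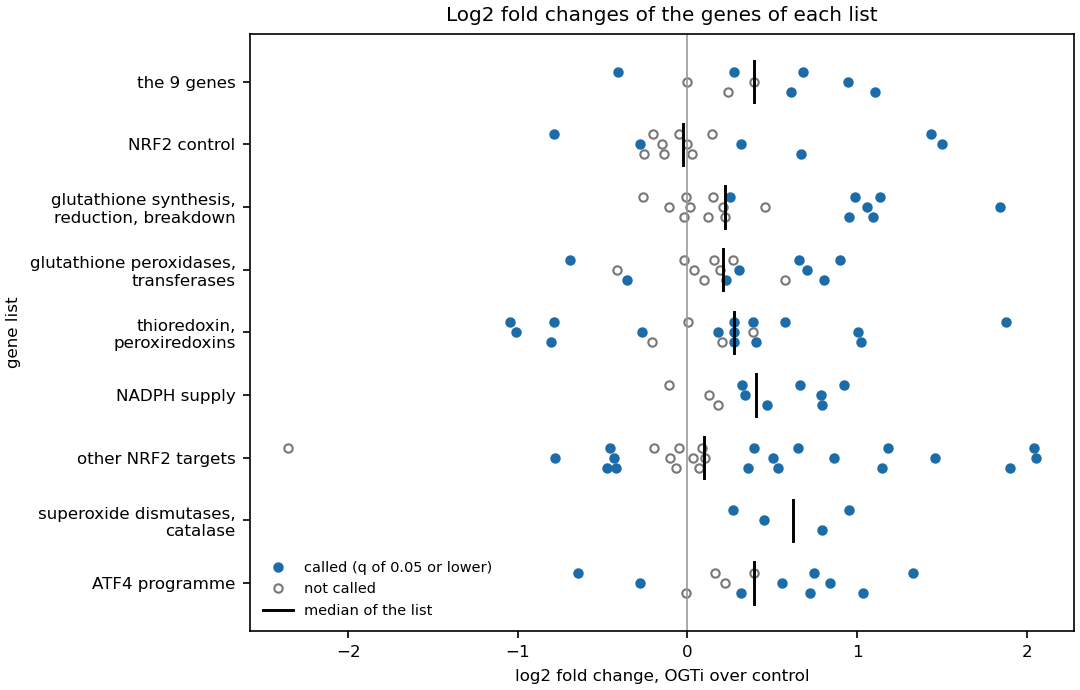
Log2 fold changes (OGTi over control) of the genes of each list, with filled points for called genes, open points for genes not called and a bar at the median. Called genes lie on both sides of 0 for the thioredoxin, NRF2 control and other target lists, and to the right of 0 for the NADPH, superoxide dismutase and glutathione synthesis lists.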

How the data were processed

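LX-2 RNA was sequenced as polyadenylated, strand-specific paired-end libraries, 4 per group. The authors aligned reads to hg38 with Bowtie2 2.3.5.1 and deposited RSEM 1.3.1 expected counts per gene, not scaled for depth; RSEM divides a read with several alignments between genes, so near-identical copies are uncertain. The authors' deposited table of their own DESeq2 1.36.0 comparison (fold changes and p-values) was not used.

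Expected counts were rounded. Genes with a total of at least 10 were fitted with DESeq2 1.42.0 (R 4.3.3; median-of-ratios size factors, replicate number as a block, independent filtering, unshrunken fold changes). Of 14895 genes fitted, 14028 received a q. The study's methods describe the replicates as independent experiments and pair treated and control samples of a replicate, which the block follows. Deviations from the group mean correlated between same-numbered libraries at 0.372, 0.391, 0.165 and 0.327 for replicates 1 to 4 (across 10994 genes, which are not independent). For control replicate 3 the correlation with OGTi replicate 4 was higher, at 0.343, also above that of control replicate 4 with OGTi replicate 4. For OGTi replicate 3 the correlation with control replicate 4 was higher, at 0.255. These correlations therefore do not tell the pairs of replicates 3 and 4 apart.

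Count ratios (pseudocount of 0.5) were compared by exact permutation of the 8 libraries with scipy 1.17.1. Lengths and positions came from GENCODE release 44 and promoter windows from RefSeq on GRCh38.p14. The 9 genes and all lists were chosen with earlier results of these data known. Other genes named were a set given by name, the 2 called genes with the largest Wald statistic of each list (mean of at least 100), and the 3 genes nearest to OSGIN1; 1 gene of the set given by name is not reported here. Alternatives were edgeR 4.0.16, no block, TMM size factors, other filters and leaving out each replicate. The script was tested on simulated data, in which the counts given to the fit held no difference between pairs.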

Additional observations from a re-analysis of the deposited data

Results flagged for a closer look

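Among 136 groups of 4 libraries (normalized counts of the named genes and the count ratios, by group), 9 held a library far from the other members of its group by Dixon's test at the 95% level, where chance gives about 1 in 20, or 6.8. Of the genes described, the normalized count of NFE2L2 was 1737 in control replicate 1 and lay between 1412 and 1462 elsewhere in that group. That of KEAP1 was 1684 in control replicate 4 and 1774 to 1784 in the rest of the group. The log2 ratio of GCLM to GCLC was 0.42 in OGTi replicate 2, against 1.13 to 1.23, and the control library of the same number had the lowest ratio of its group as well. In the related genes, IDH2, RBX1 and GPX8 had 1450, 567 and 1988 normalized counts in control replicate 1 (others 1066 to 1109, 460 to 477 and 1693 to 1733), GSTO1 had 538 in control replicate 4 (others 571 to 574), SQSTM1 had 22371 in OGTi replicate 1 (others 23908 to 24193) and FTL had 98969 in OGTi replicate 1 (others 119550 to 123015). Of these 9, 6 stood in libraries of replicate 1.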

How the results depend on the processing

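The number of genes called ran from 5127 (without replicate 2) to 7074 (edgeR), and that of the 9 genes from 5 (no replicate block) to 8 (without replicate 1). KEAP1, GCLC, GCLM, SRXN1 and OSGIN1 were called higher under every alternative run. SLC7A11 was called by edgeR (0.39, q of 0.00547) and without replicate 1, with values of 0.26 to 0.58 when each replicate was left out. NQO1 was called only without replicate 1, with 0.16 to 0.42. TXNRD1 was not called without the replicate block (-0.38). The sign of NFE2L2 turned with edgeR (7.74e-05), with TMM size factors (0.000174) and without replicate 1 (leaving out each replicate gave -0.0399 to 0.0747), that of MAFK without the replicate block (0.000718) and when replicates were left out (-0.0906 to 0.0916), and that of GSS when replicates were left out (-0.0737 to 0.0295), none of them called. CHAC1 lost its call without replicate 4 (1.08, q of 0.0668), and SOX9 lost it without the replicate block (0.33, q of 0.0854) and without replicates 1 or 3. The 2 calls among endothelial markers ran from 1 to 2 when replicates were left out, as did those among cholangiocyte markers, which were 1 without the replicate block. The cause was not tested. Without the replicate block PRDX4 (-0.26, q of 0.0854), SOD1 (0.27, q of 0.1001) and SLC7A5 (-0.26, q of 0.108) also lost their calls, and the block changed no other call of a gene named. Leaving out 1 replicate also cost the calls of CREBBP (without replicate 4), PRDX4 (2, 3 or 4), SOD1 (2), TRIM16L (1, 2 or 3), TRIM16 (2, 3 or 4), RIT1 (2, 3 or 4), SLC7A5 (4) and TEK (1, 3 or 4). Sign-flip tests of the paired ratios with the replicate block gave p of 0.125 for SLC7A11 to SLC3A2 (-1.46), KEAP1 to NFE2L2 (0.27) and TXNRD1 to TXN (-0.68), the smallest that 4 pairs allow. Leaving out a replicate gave -1.62 to -1.26, 0.21 to 0.31 and -0.71 to -0.63, with p of 0.1, the smallest for 3 against 3. With the median mRNA length, control levels were 657.9 for TXNRD1, 189.6 for NQO1, 64.0 for KEAP1, 22.3 for NFE2L2, 10.7 for GCLC, 10.6 for GCLM and 8.95 CPM per kilobase for OSGIN1. Depth was not varied. Among the 9 genes the largest standard error was that of SLC7A11 (0.21), while that of OSGIN1, the gene with the fewest counts, was 0.15, and a change of NFE2L2 within its interval could not be detected.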
